A study of Heterocephalus glaber with 6 samples.

Results

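The subject of this account is the 200 most abundant loci with Ensembl-format gene IDs in the epidermis of the naked mole-rat. They are the IDs that start with ENSHGLG and have the highest mean CPM, the count of a locus scaled to a fixed library total, over the 4 acetone-treated control libraries. Counts were given for 33281 loci in all, of which 16308 had Ensembl-format IDs and the other 16973 had IDs of a transcript assembly. The words "most abundant" hold only within the Ensembl-format loci, since 826 assembled loci stood above the first of the 200. Among all loci the 200 took places 827 to 3968. The files and the RefSeq gene table used here pair none of these IDs with a symbol, so loci are called by their rank from 1 to 200 and no gene function can be given.

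The naked mole-rat is a long-lived rodent known for its low rate of cancer. Wild-type animals, 6 to 7 months old, had their back skin treated, and RNA was sequenced from the separated epidermis. In the DMBA group the skin received 1 dose of 7,12-dimethylbenz[a]anthracene, 100 µl at 1 mg/ml, and was taken on day 10. In the DMBA/TPA group the same dose was followed 2 times per week by the phorbol ester TPA at 0.1 mg/ml, and the skin was taken on day 46. A separate set of acetone controls went with each treatment, and acetone was the solvent of both agents. There were 4 groups of 2 libraries. Each control set was 1 sample with 2 count columns, each taken here as 1 library. The labels name no animal for any library. The p-values therefore reflect the spread among libraries alone, which may be technical.

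In chemical skin carcinogenesis, DMBA is activated by cytochrome P450 enzymes of the skin to reactive products that bind DNA and mutate keratinocytes. TPA activates protein kinase C, and in mouse skin repeated TPA causes inflammation and thickening of the epidermis and favours the growth of mutated cells. The epidermis consists mainly of keratinocytes, which as they mature make a small number of structural proteins in very large amounts, so that a few transcripts can hold a large share of all reads. A rise of such transcripts lowers the CPM of every other locus, whether or not those loci change, and this bears on all values given here as CPM. In whole epidermis, fewer cells of a type and less RNA per cell cannot be told apart.

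Total counts lay between 22852358 and 38124702 per library, and each of the 4 treated libraries was deeper than each acetone library. The most abundant locus of each library, an assembled one, held 3.99% to 5.76% of the counts in the acetone libraries. Its share was 8.18% and 8.65% after DMBA, and 15% and 17.8% after DMBA/TPA. Whether this was the same locus in each library was not checked. Each of the 200 loci had at least 339 counts in each library, and the median locus had between 1245.5 and 1728. Counting error alone was therefore at most 5.43% of a value, and the spread between libraries, not depth, set the precision. All 200 passed the filter on low counts, which kept 18422 of all loci and 4465 of the Ensembl-format loci.

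In the acetone epidermis, whose values chose the loci and are given as a description, the range of levels was narrow. The mean acetone CPM ran from 187.9 at rank 1 to 40.1 at rank 200, a ratio of 4.69, with a median of 55.6. Above 100 CPM there were 16 loci, and 72 loci lay under 50 CPM. The last 5 loci inside the limit had 40.484, 40.311, 40.305, 40.264 and 40.054 CPM, and the first 5 outside had 40.036, 39.99, 39.497, 39.4 and 39.314 CPM. The border thus falls in a dense part of the distribution and not at a gap.

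The locus of rank 1 had 201.6 and 151.5 CPM with acetone in the DMBA set and 208.2 and 190.2 CPM with acetone in the DMBA/TPA set, 143.7 and 133.5 CPM once DMBA was given and 81.3 and 73.0 CPM once TPA followed. In CPM every treated library was below every acetone library, and the DMBA/TPA libraries were the lowest. With the TMM scaling described below, the DMBA libraries of rank 1 overlapped the acetone libraries, and the DMBA/TPA libraries stayed the lowest. Rank 2 had 164.7 and 136.3 CPM with acetone in the DMBA set and 171.2 and 195.1 CPM with acetone in the DMBA/TPA set, 144.9 and 149.0 CPM once DMBA was given and 106.0 and 96.5 CPM once TPA followed. It was the Ensembl-format locus of highest mean CPM both after DMBA and after DMBA/TPA. Rank 3 had 173.9 and 149.5 CPM with acetone in the DMBA set and 144.7 and 160.6 CPM with acetone in the DMBA/TPA set, 128.3 and 135.7 CPM once DMBA was given and 91.2 and 85.0 CPM once TPA followed.

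Rank 4 had 176.9 and 130.8 CPM with acetone in the DMBA set and 132.4 and 139.4 CPM with acetone in the DMBA/TPA set, 81.2 and 86.3 CPM once DMBA was given and 70.6 and 55.0 CPM once TPA followed. Rank 5 had 138.8 and 121.8 CPM with acetone in the DMBA set and 139.6 and 142.9 CPM with acetone in the DMBA/TPA set, 65.7 and 105.9 CPM once DMBA was given and 77.7 and 62.6 CPM once TPA followed. For ranks 3, 4 and 5 too, no treated library reached the lowest acetone library in CPM, while for rank 5 the DMBA and DMBA/TPA libraries overlapped. With TMM scaling the separation from acetone held for ranks 4 and 5, while at rank 3 the DMBA libraries overlapped the acetone libraries.

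Together the 200 loci held 1.23% ± 0.0796 of all counts in the first control set, that of DMBA, 1.3% ± 0.0224 in that of DMBA/TPA, 1.02% ± 0.0599 after DMBA and 0.756% ± 0.054 after DMBA/TPA (mean ± SD, n = 2 each). For comparison, all Ensembl-format loci together held 3.87% and 4.03% in the control sets, 3.46% after DMBA and 2.84% after DMBA/TPA, so their share of all counts was lower too. Within the counts of the Ensembl-format loci alone, where the abundant assembled loci play no part, the 200 held 31.7% ± 0.000791 and 32.2% ± 0.779 in the control sets, 29.3% ± 0.218 after DMBA and 26.6% ± 0.269 after DMBA/TPA (mean ± SD, n = 2 each). The 4 treated libraries were again below the 4 acetone libraries and the DMBA/TPA libraries below the DMBA libraries. Loci chosen for high acetone values are by that choice alone somewhat lower in other libraries, so these shares are a description.

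**Figure D1:**
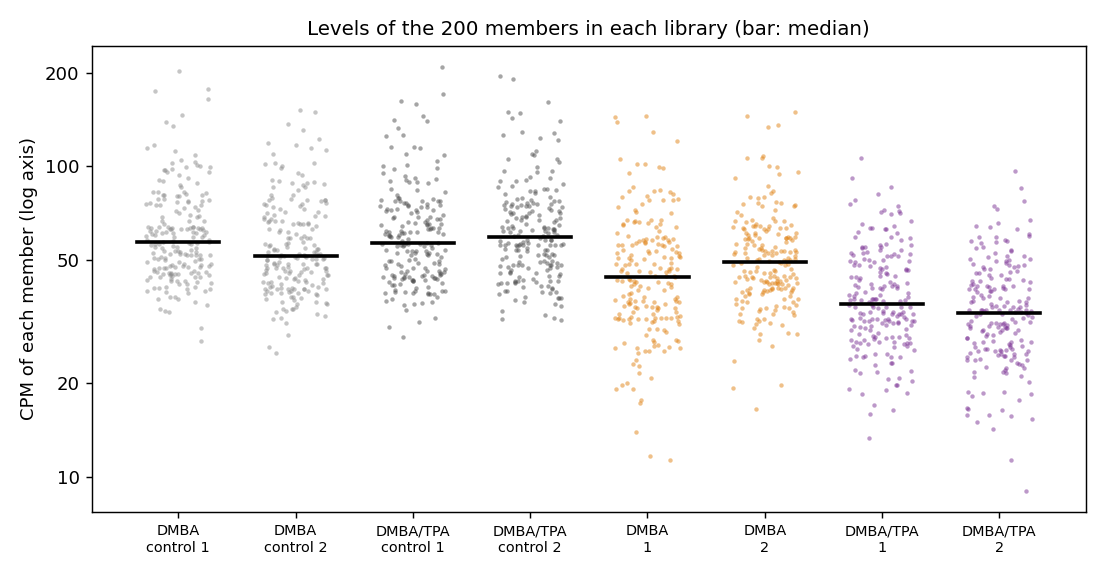
CPM of each of the 200 loci (points, log axis) in each of the 8 libraries, with the median as a bar. The medians lie between 51.3 and 59.1 CPM in the acetone libraries, at 44.1 and 49 CPM after DMBA, and at 36.1 and 33.7 CPM after DMBA/TPA.

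To compare loci free of the few dominant transcripts, libraries were scaled by TMM, which sets the scale from the bulk of the loci. On that scale the median level of the 200 was 49.3 ± 0.705 with acetone in the DMBA set and 50.4 ± 0.953 in the other, 48.1 ± 1.67 after DMBA and 42.4 ± 0.703 after DMBA/TPA (TMM-scaled CPM, mean ± SD of the library medians, n = 2 each). The ratio of the highest to the lowest of a locus's 4 group means had a median of 1.44 in TMM-scaled CPM, and it was above 2 for 23 loci. In CPM the median ratio was 1.82, from 1.09 to 6.1. DMBA/TPA was the lowest of the 4 group means in TMM-scaled CPM for 115 of the 200 loci, and the highest for 23. The choice by high acetone values by itself favours a treated group as the lowest. The shares over all loci were not computed, so these counts are a description.

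Setting DMBA/TPA beside its controls asks how epidermal transcripts on day 46 of DMBA and repeated TPA differed from those of acetone skin. It does not separate TPA from DMBA. Of the 200 loci, 48 fell, 6 rose and 146 were not called at an adjusted p below 0.05 in edgeR's quasi-likelihood test, with the Benjamini-Hochberg adjustment over all 18422 loci tested. Over all loci 26.5% were called, 12% lower and 14.5% higher, so the share of the 200 that was called, 27%, was near the background. Their balance was towards falls, where the background leaned slightly to rises. The median log2 fold change of the 200 was -0.24, against -0.04 over all loci tested, and 140 of them had a negative value. The 48 loci that fell did so by a median log2 fold change of -0.86, while the 6 that rose lay between 0.53 and 1.07. Of the 200, 15 were called lower by more than 2-fold, as were 1533 of all 18422 loci tested. This count was near the background.

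Without regard to the test, both TMM-scaled levels of DMBA/TPA lay below both of its controls for 122 of the 200 loci and above for 41, where 36.7% and 34.9% of all loci did so. Set against all 6 other libraries, both DMBA/TPA libraries were the lowest for 56 of the 200 and the highest for 9, against 11.9% and 15.8% of all loci.

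The acetone libraries of this comparison also took part in choosing the loci, and a choice by high control values favours falls. When 200 loci were chosen instead by the DMBA controls alone, none of whose libraries enter this comparison, 43 fell and 8 rose, with a median log2 fold change of -0.18. That list shared 182 loci with the first. The 2942 assembled loci whose mean acetone CPM lay in the range of the 200 had 465 lower and 506 higher calls. Their median was 0.01. That range was also closed at the top, with 826 assembled loci above it, while the 200 are the highest of their class. The choices are therefore unlike, and this median does not measure the pull towards falls. Whether these classes of loci differ at like abundance was not tested.

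The number of calls depended on single libraries. Leaving out DMBA/TPA control library 1 gave 13 lower and 1 higher calls among the 200, where 6.9% of all loci were called, and leaving out control library 2 gave 23 and 2, with 10.8% of all loci. Leaving out DMBA/TPA library 1 gave 15 and 2, with 10.1% of all loci, and library 2 gave 14 and 1, with 7.92%. Leaving out DMBA library 1 or 2, neither of which enters the contrast except through the shared estimate of spread, gave 80 and 12 or 71 and 14, with 32.3% or 32.2% of all loci. The share called over all loci thus moved in the same direction in each of these 6 fits. All 48 loci kept a negative fold change in each of the 19 alternative fits, 11 of them were called in each of the 8 fits that leave out 1 library, and 5 in all 19. The CPM of all 48 did not overlap between the groups, so leaving out 1 library left little room for a change of sign. With total counts in place of TMM, 128 of the 200 were lower and 1 higher, where 28% of all loci were lower and 5.63% higher. The medians were -0.72 and -0.52. With upper-quartile scaling 83 of the 200 were lower and 3 higher, where 16.3% of all loci were lower and 11% higher, and the medians were -0.39 and -0.19. In edgeR with 4 scalings and in DESeq2, 47 loci were called lower in all 5 settings and 1 was called higher. The share of all loci that kept a call through these fits and settings was not computed. With the control columns of each sample summed, far fewer of the 200 were called, as given at the end, and the median was -0.28.

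**Figure D2:**
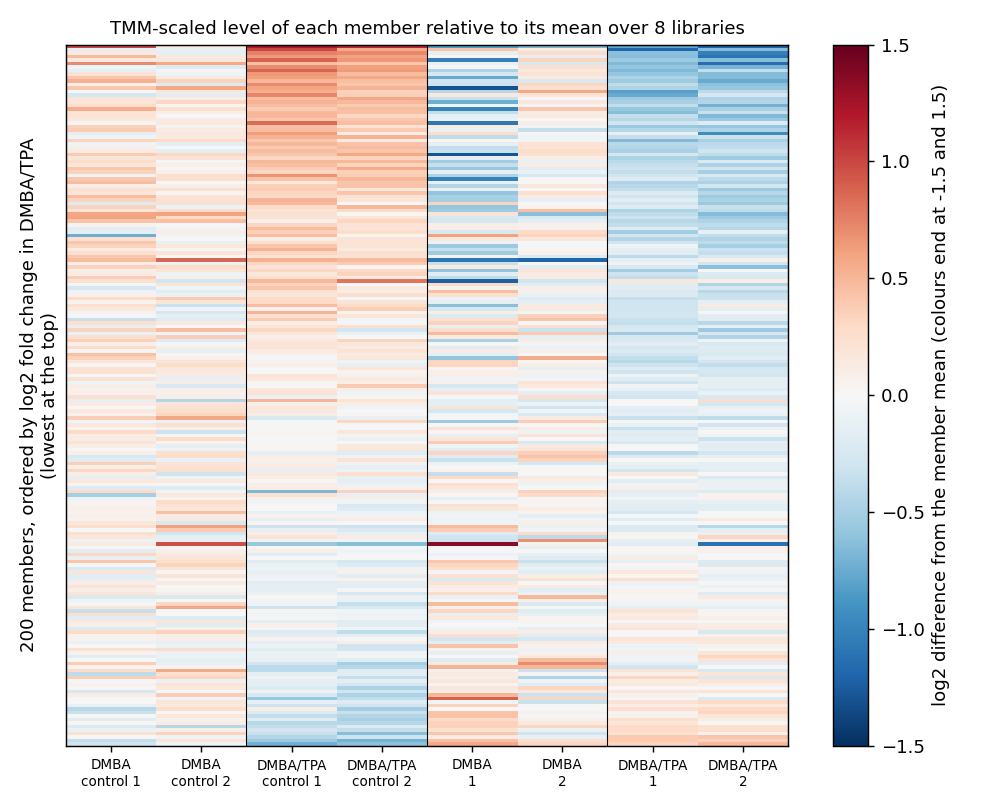
TMM-scaled level of each of the 200 loci (rows) in each of the 8 libraries (columns), as the log2 difference from the locus's own mean, ordered by the log2 fold change in DMBA/TPA against its controls, from -2.14 at the top to 1.07 at the bottom. The uppermost rows are red in the DMBA/TPA controls and blue in both DMBA/TPA libraries, and some rows are deep blue in the first DMBA library alone.

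ENSHGLG00000010509, of rank 49, had the smallest p among the loci that fell. It had 54.8 and 45.5 CPM with acetone in the DMBA set and 90.6 and 91.4 CPM with acetone in the DMBA/TPA set, 46.0 and 58.7 CPM once DMBA was given and 28.7 and 24.3 CPM once TPA followed. The DMBA/TPA libraries were the lowest of all and their own controls the highest. Its log2 fold change was -1.30 (SE 0.163, edgeR adjusted p = 0.00127). Against the DMBA controls it was -0.50 and the call was lost (edgeR adjusted p = 0.0671). Over the 19 alternatives its adjusted p ran from 1.34e-10 to that value.

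The locus of rank 97 changed most. It had 60.6 and 31.2 CPM with acetone in the DMBA set and 67.5 and 68.7 CPM with acetone in the DMBA/TPA set, 13.9 and 16.5 CPM once DMBA was given and 13.3 and 9.02 CPM once TPA followed. All 4 treated libraries were below all 4 acetone libraries. The first DMBA control library was near the DMBA/TPA controls, and the second lay between them and the treated libraries. In DMBA/TPA its log2 fold change was -2.14 (SE 0.276, edgeR adjusted p = 0.00137), and it was called in all 19 alternatives, with -1.62 against the DMBA controls.

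Rank 79 had 43.9 and 40.9 CPM with acetone in the DMBA set and 93.2 and 74.4 CPM with acetone in the DMBA/TPA set, 53.2 and 45.2 CPM once DMBA was given and 15.9 and 21.1 CPM once TPA followed, a log2 fold change of -1.70 (edgeR adjusted p = 0.00161). Against the DMBA controls it had -0.77 and was not called (edgeR adjusted p = 0.0511). Rank 157 had 37.4 and 28.5 CPM with acetone in the DMBA set and 55.2 and 57.7 CPM with acetone in the DMBA/TPA set, 25.3 and 35.4 CPM once DMBA was given and 16.4 and 11.3 CPM once TPA followed, a log2 fold change of -1.56 (edgeR adjusted p = 0.00163). In both loci the DMBA/TPA controls stood above the other 6 libraries and the DMBA/TPA libraries below them.

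Rank 42 had 77.4 and 56.0 CPM with acetone in the DMBA set and 83.9 and 87.4 CPM with acetone in the DMBA/TPA set, 46.5 and 43.7 CPM once DMBA was given and 26.8 and 17.7 CPM once TPA followed. Its libraries fell into order, acetone above DMBA above DMBA/TPA, without overlap. The log2 fold change in DMBA/TPA was -1.48 (SE 0.202, edgeR adjusted p = 0.00166), called in all 19 alternatives. Ranks 1 and 4 also fell, with log2 fold changes of -0.89 (edgeR adjusted p = 0.00673) and -0.64 (edgeR adjusted p = 0.0215). For rank 1 the call was lost without the first DMBA/TPA control library or either DMBA/TPA library, and for rank 4 without any 1 of the libraries in this comparison (highest edgeR adjusted p 0.0689 and 0.181). Ranks 2, 3 and 5 had log2 fold changes of -0.37, -0.31 and -0.53 and were not called (edgeR adjusted p = 0.0947, 0.141 and 0.079).

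ENSHGLG00000004969, of rank 188, had the smallest p among the loci that rose. It had 44.9 and 48.5 CPM with acetone in the DMBA set and 32.4 and 37.6 CPM with acetone in the DMBA/TPA set, 67.2 and 60.1 CPM once DMBA was given and 51.9 and 53.2 CPM once TPA followed. Every treated library was above every acetone library, and in CPM the DMBA libraries were the highest. On the TMM scale the DMBA and DMBA/TPA libraries overlapped. In DMBA/TPA its log2 fold change was 1.07 (SE 0.169, edgeR adjusted p = 0.00281), and in DMBA it was 0.63, which was not called (edgeR adjusted p = 0.111). This was the 1 riser called with each scaling, with 0.59 for total counts (edgeR adjusted p = 0.0216), and its call was lost when the control columns of a sample were summed (edgeR adjusted p = 0.0594) and in no other alternative.

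The other 5 risers had smaller fold changes, and 3 of them had CPM that did not overlap between the groups. Rank 192 had 40.3 and 54.5 CPM with acetone in the DMBA set and 34.5 and 33.1 CPM with acetone in the DMBA/TPA set, 57.6 and 53.4 CPM once DMBA was given and 51.3 and 45.1 CPM once TPA followed, a log2 fold change of 0.99 (edgeR adjusted p = 0.00776). Rank 133 had 57.1 and 50.1 CPM with acetone in the DMBA set and 40.9 and 48.1 CPM with acetone in the DMBA/TPA set, 51.1 and 45.9 CPM once DMBA was given and 56.2 and 52.5 CPM once TPA followed, a log2 fold change of 0.77 (edgeR adjusted p = 0.00745). In CPM the DMBA controls of both overlapped the DMBA/TPA libraries, while on the TMM scale they lay below them. The lowest libraries of rank 192 were the DMBA/TPA controls on both scales. At rank 133 these controls overlapped the DMBA libraries in CPM and were the lowest on the TMM scale. Rank 90 had a log2 fold change of 0.59 (edgeR adjusted p = 0.0289) that was 0.11 with total counts (edgeR adjusted p = 0.64). The calls of ranks 90 and 192 were lost without any single library of the comparison, and that of rank 133 without the first DMBA/TPA control library or the second DMBA/TPA library (highest edgeR adjusted p in these fits 0.154, 0.0684 and 0.0808).

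The controls bear on these calls. Of the 48 loci that fell, 42 had higher TMM-scaled levels in their own controls than in those of DMBA, by a median of 0.29 on the log2 scale, and of the 6 that rose 1 did, with a median of -0.41. None of the 200 loci was called between the control sets by edgeR, where 0.711% of all loci were, 0.565% as higher and 0.147% as lower with DMBA/TPA, and DESeq2 called 10 of the 200, or 5%, against 4.98% of all loci. An unadjusted p below 0.05 was found in edgeR for 36 of the 200 and for 3002 of all 18422 loci, so both counts were near the background. Loci called by their difference from 1 control set will tend to deviate in that set. Against the DMBA controls in place of their own, 19 of the 48 loci and 2 of the 6 were still called in their direction, and all 54 kept their sign, with medians of -0.63 for the loci that fell and 0.43 for those that rose. The day on which each control set was taken is not stated in the labels.

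**Figure D3:**
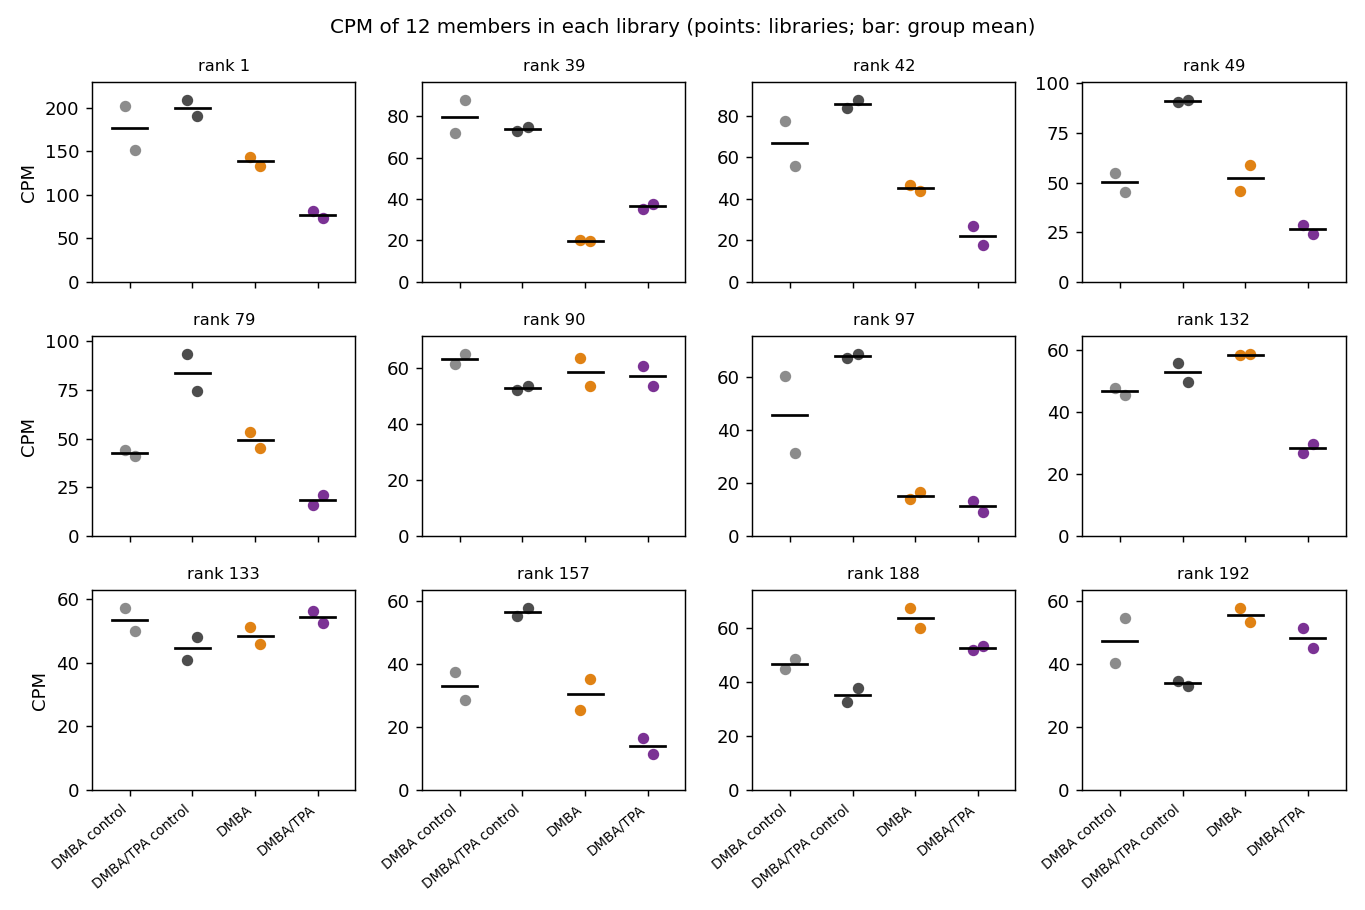
CPM of 12 loci, named by rank, in each library (points) with the group mean (bar); each axis starts at 0. Ranks 49, 79 and 157 are highest in the DMBA/TPA controls, and rank 39 is lowest after DMBA at 20.1 and 19.7 CPM. Rank 188 is highest after DMBA in CPM, while on the TMM scale its DMBA and DMBA/TPA libraries overlap.

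Fewer of the loci were called after DMBA alone. On day 10, 2 of the 200 fell and none rose in edgeR's quasi-likelihood test, where 0.271% of all loci were called lower, 0.836% higher and 1.11% in either direction. An unadjusted p below 0.05 was found for 28 of the 200 and for 3303 of all 18422 loci. DESeq2 called 6 lower and 3 higher, or 4.5% of the 200, where it called 5.14% of all loci. The median log2 fold change was -0.09, against 0.00 over all loci. The TMM-scaled levels lay below both controls in both DMBA libraries for 66 of the 200 and above for 30, where 21.8% and 22.7% of all loci did so. Chosen by the DMBA/TPA controls alone, which are no part of this comparison, 200 loci had 2 lower calls, no higher call and a median of -0.06.

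ENSHGLG00000009109, of rank 39, had the smaller p of the 2. It had 71.9 and 87.5 CPM with acetone in the DMBA set and 72.7 and 74.7 CPM with acetone in the DMBA/TPA set, 20.1 and 19.7 CPM once DMBA was given and 35.3 and 37.7 CPM once TPA followed. The DMBA libraries were the lowest, the DMBA/TPA libraries came next, and no group overlapped another except the control sets. Against its own controls the log2 fold change after DMBA was -1.83 (SE 0.184, edgeR adjusted p = 0.00642), and it ran from -2.02 to -1.61 over the 19 alternatives. The call held in each fit that left out 1 library. It was lost in 2 alternatives, with the control columns summed and with only the groups of the comparison in the fit.

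Rank 97, given above, was the other, with a log2 fold change of -1.40 after DMBA (edgeR adjusted p = 0.0472). That call was lost in 6 of the 8 fits that leave out 1 library, all but those without the second DMBA control or the second DMBA library. Without the first DMBA control library, the high 1 of its pair, the log2 fold change was -0.92 (edgeR adjusted p = 0.257), the lowest in size of these fits. Rank 97 was thus the single locus of the 200 called lower under both treatments. No locus was called in opposite directions under DMBA and DMBA/TPA.

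The 2 DMBA libraries differed more from each other than the libraries of the other groups did. This held over all loci too, with a chi-square per degree of freedom of 137 for the DMBA pair. In the other groups it was 26.2 to 41.2. After centring on the median, 32 of the 200 loci differed by more than 1.5-fold between them, against 6 and 1 in the control sets of DMBA and DMBA/TPA and 2 in DMBA/TPA itself. In 5 loci the first DMBA library was lower than each of the other 7 by more than 1.5-fold in TMM-scaled CPM, which occurred for 1 locus in the second DMBA/TPA library and for none in the other 6 libraries. The widest gap between the 2 DMBA libraries was at rank 142, with 11.3 CPM in the first and 34.9 CPM in the second DMBA library, where the acetone libraries had 44.8 to 50.1 CPM and the DMBA/TPA libraries 18.6 and 15.7 CPM. Of the 48 loci that fell in DMBA/TPA, 37 had the lower value in the first DMBA library, as had 69 of the 146 not called and none of the 6 that rose, or 106 of the 200. Without the second DMBA library 18 of the 200 were called lower and 3 higher after DMBA, where 5.29% of all loci were called. Without the first 2 were lower and 1 higher, with 1.77% of all loci called.

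The direct comparison of DMBA/TPA with DMBA used no library that had chosen the loci, although TPA and the day of harvest differ together in it. The median log2 difference of the 200 was -0.18, with 152 of them negative, against -0.02 over all loci, of which 9421 of 18422 were negative. By edgeR 3 were lower and 1 higher in DMBA/TPA, where 1.22% of all loci were called lower, 1.13% higher and 2.35% in either direction, so the share called was near the background. DESeq2 called 14 lower and 1 higher, or 7.5% of the 200, against 7.31% of all loci, 3.61% lower and 3.7% higher. With total counts 21 were lower and 1 higher, against 3.53% and 0.613% of all loci. Both TMM-scaled levels of DMBA/TPA were below both of DMBA for 80 of the 200 and above for 20, against 23.9% and 25.3% of all loci. The assembled loci in the same range of acetone CPM had a median of -0.03.

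Rank 39 was the locus called higher, by a log2 difference of 1.11 (SE 0.182, edgeR adjusted p = 0.0209). Ranks 79 and 49, given above, were lower by -1.17 (edgeR adjusted p = 0.034) and -0.75 (edgeR adjusted p = 0.0469). The third was rank 132, with 47.7 and 45.6 CPM with acetone in the DMBA set and 56.0 and 49.6 CPM with acetone in the DMBA/TPA set, 58.4 and 58.6 CPM once DMBA was given and 26.8 and 29.7 CPM once TPA followed. Its DMBA libraries were the highest of all and its DMBA/TPA libraries the lowest, a log2 difference of -0.81 (edgeR adjusted p = 0.0431). None of these 4 calls held in every fit that left out 1 library. Leaving out DMBA control library 1 or 2 left 1 locus called in either case, leaving out any single DMBA/TPA library or control of it left none, and leaving out DMBA library 1 or 2 gave 25 or 12.

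The effects of the treatments, each against its own controls, differed for 7 of the 200 loci in edgeR, 6 with the lower value in DMBA/TPA and 1 with the higher, where 5.12% of all loci were called, 3.05% lower and 2.07% higher. The 1 with the higher value was rank 39, and ranks 49, 79 and 157 were among the other 6. The median difference of the effects was -0.17 on the log2 scale, against 0.02 over all loci.

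In the comparisons with controls the size of the shift followed abundance among the 200. In DMBA/TPA against its controls the median log2 fold change was -0.44 for ranks 1 to 50 and -0.37 for ranks 51 to 100. It was -0.15 for ranks 101 to 150 and -0.11 for ranks 151 to 200. In these bands 16, 17, 11 and 4 loci were called lower and 0, 1, 3 and 2 higher. Over all loci 12% were called lower and 14.5% higher, and at ranks 201 to 400 there were 23 lower and 22 higher calls. Beyond the 200 the median was -0.03 for ranks 201 to 400, 0.09 for ranks 401 to 1000 and 0.00 for the tested loci after that. In the comparison of DMBA/TPA with DMBA, which is free of the acetone libraries, the medians differed little within the 200. They were -0.21, -0.21, -0.17 and -0.15 there, and -0.05, -0.01 and 0.00 beyond. After DMBA they were -0.21, -0.10, -0.08 and 0.06 within the 200. These medians are over loci of the same libraries and carry no test, and ranks rest on the acetone values, which favours falls at the top in the comparisons with controls.

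**Figure D4:**
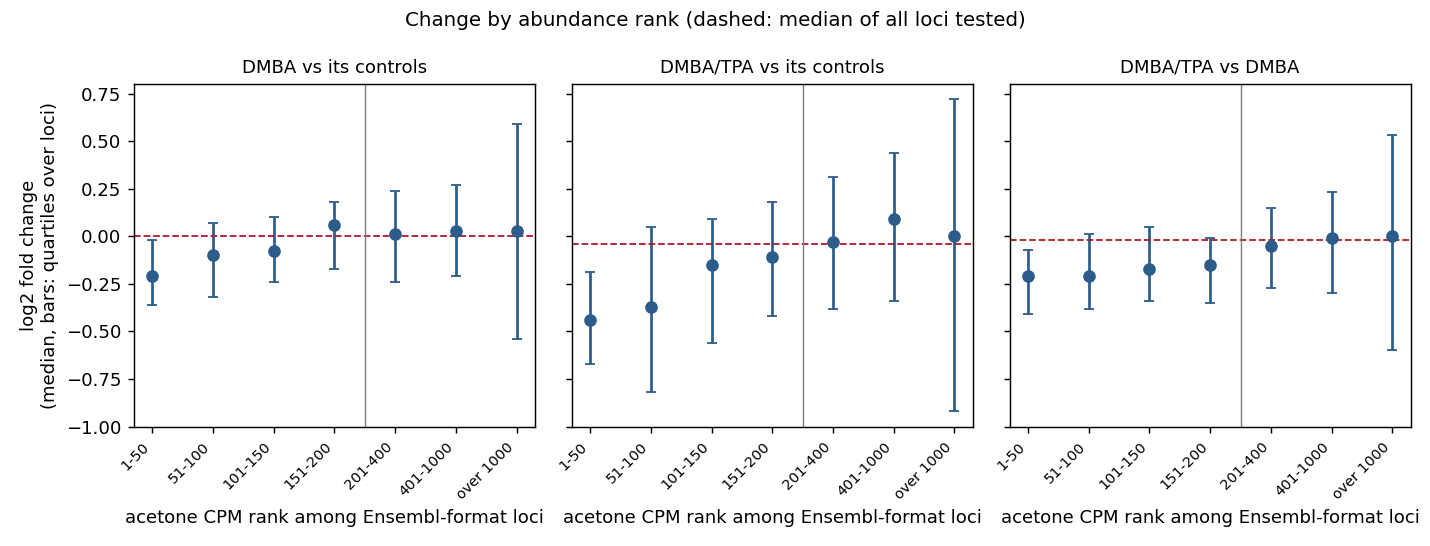
Median log2 fold change (points, bars from the lower to the upper quartile over loci) by rank of acetone CPM among the Ensembl-format loci, in 3 comparisons; the vertical line marks rank 200 and the dashed line the median of all loci tested. In DMBA/TPA against its controls the median goes from -0.44 at ranks 1 to 50 to -0.03 at ranks 201 to 400.

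The order of the loci changed accordingly. By mean CPM after DMBA, 165 of the 200 were still among the 200 highest Ensembl-format loci, and after DMBA/TPA 143 were. The 57 loci that took the free places after DMBA/TPA had a median acetone rank of 310 and the last of them 926, so 10 came from beyond rank 400. Of the first 10 loci in acetone, 5 were among the first 10 after DMBA and 7 after DMBA/TPA. The 200 highest Ensembl-format loci of each single acetone library held 177 to 181 of the list. Those of the DMBA libraries held 147 and 167, and those of the DMBA/TPA libraries 145 and 141. Each acetone library had a part in choosing the list and the treated libraries had none, which by itself raises the acetone overlaps.

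Some of the 200 had group means that hardly differed in CPM. Rank 64 had 63.5 and 67.7 CPM with acetone in the DMBA set and 69.7 and 63.0 CPM with acetone in the DMBA/TPA set, 65.3 and 72.4 CPM once DMBA was given and 63.2 and 59.5 CPM once TPA followed, and the ratio of its highest to its lowest group mean was 1.12. Rank 112 had the lowest ratio, 1.09, because pairs that differ within a group, such as 44.0 and 65.0 CPM in the DMBA controls, had like means. Rank 147 had a ratio of 1.15 and ran between 40.1 and 49.9 CPM in all 8 libraries. With TMM scaling, the treated libraries of rank 64 were all above its acetone libraries, while those of ranks 112 and 147 overlapped theirs. On the TMM scale all 3 had positive log2 fold changes in DMBA/TPA, 0.36, 0.45 and 0.30, none of them called (edgeR adjusted p = 0.117, 0.217 and 0.183), and with total counts these were -0.11, -0.02 and -0.19.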

How the data were processed

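RNA from 6 samples was sequenced after ribosomal RNA depletion as strand-directional libraries, per the labels' protocols, from epidermis separated with dispase at 5 mg/ml and RNA of integrity above 7. The authors deposited raw counts per gene ID. Per the submitters' processing notes the tools were TopHat2, Bowtie2, Cutadapt and FastQC, with no order stated. No source used here gives the build, the annotation, the counter or its strand setting, so reads shared by overlapping, antisense or near-identical loci cannot be checked.

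Each control sample has 2 count columns, each taken as 1 library, which gave 8. Library pairs differed by more than sampling noise (chi-square per degree of freedom 26.2 to 137). CPM is the count over the column total. R 4.3.3 with edgeR 4.0.16 was used: filterByExpr (minimum count 10, total 15), TMM, a robust quasi-likelihood fit of 4 groups (4 residual degrees of freedom), 5 contrasts, and Benjamini-Hochberg adjustment over 18422 loci. Standard errors are the log2 fold change over the root of F. The procedure was tested on simulated data. Alternatives included DESeq2 1.42.0. No ID matched the RefSeq table (0 matches in 42221 rows, H.glaber assembly), so the fixed marker and pathway lists and keratinocyte markers could not be applied, and the tissue label was not checked. Named loci are ranks 1 to 5, up to 5 called loci per direction and comparison of smallest p whose CPM do not overlap, and the 3 widest and 3 narrowest ratios of group means. Rank 142 was named after its values were seen. The loci and lists were chosen with earlier results of these data known; rank bands and the CPM range of assembled loci were set after seeing the data.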

Additional observations from a re-analysis of the deposited data

Results flagged for a closer look

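For 7 of the 200 loci the effect of DMBA/TPA against its controls differed from that of DMBA against its controls (edgeR adjusted p below 0.05 for the difference, where 5.12% of all loci were called). The log2 difference, DMBA/TPA minus DMBA, was 1.30 at rank 39 (edgeR adjusted p = 0.0238), where the effects were -1.83 after DMBA and -0.53 after DMBA/TPA. At the other 6 the effect was lower in DMBA/TPA, by -1.55 at rank 49, -2.10 at rank 79, -1.01 at rank 101, -1.44 at rank 143, -1.62 at rank 157 and -1.43 at rank 160 (edgeR adjusted p = 0.00969, 0.0108, 0.0406, 0.0277, 0.0198 and 0.0444). At all 6 the DMBA/TPA controls were higher than the DMBA controls, by 0.55 to 0.92 on the log2 scale, and none of these control differences was called (edgeR adjusted p = 0.0634 to 0.236). The part of the controls in these differences was not tested. In the direct comparison of the treated groups, which leaves the controls out, 2 of the 6 were called lower, ranks 49 and 79. None of the 7 differences was called in each fit that left out 1 library. Over the 16 alternative fits the adjusted p ran from 0.000443 to 0.214 at rank 39 and from 7.18e-07 to 0.144 at rank 79.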

How the results depend on the processing

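Counts of called loci among the 200 are given as totals of both directions, in the order DMBA, DMBA/TPA, DMBA/TPA against DMBA, the control sets against each other, and the difference of effects; the main counts were 2, 54, 4, 0 and 7, and the cause of each change was not tested. DESeq2 gave 9 for DMBA, 15 for DMBA/TPA against DMBA, 10 for the control sets and 18 for the difference, where it called 5.14%, 7.31%, 4.98% and 9.83% of all loci. With the control columns summed the counts were 0, 7, 0 and 0 for DMBA, DMBA/TPA, their direct comparison and the difference, in a fit with fewer libraries that called 0%, 4.58%, 0.596% and 0.247% of all loci. With only the groups of a comparison in the fit they were 0, 99 and 0 for the first 3, with 0.0922%, 42.1% and 0.706% of all loci. Upper-quartile scaling gave 86 for DMBA/TPA, 1 for the control sets and 12 for the difference (all loci 27.4%, 0.993% and 5.08%), total counts 129, 22 and 19 for DMBA/TPA, its comparison with DMBA and the difference (all loci 33.6%, 4.15% and 5.76%), and TMM from Ensembl-format loci alone 2 for DMBA/TPA against DMBA (2.06%). No filter gave 7, 2 and 13 for the last 3 (3.08%, 1.83% and 5.28%), and a filter at 1 CPM in 2 libraries 1 and 12 for the last 2 (1.19% and 7.02%). With the control set of the other treatment DMBA had 15 calls, 9 of them lower, and DMBA/TPA 30, 28 of them lower, with 5.68% and 13.3% of all loci. The first 100 loci had 34 calls in DMBA/TPA and 3 in the difference, and the first 400 had 99, 7, 1 and 17 in the last 4. Loci chosen by the DMBA controls had 4 calls in the difference, and those chosen by the DMBA/TPA controls 1 between the control sets and 12 in the difference.

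Leaving out 1 library gave 1 to 21 calls for DMBA, 14 to 92 for DMBA/TPA, 0 to 25 for DMBA/TPA against DMBA, 0 to 13 for the control sets and 0 to 46 for the difference. The share called over all loci in the same fits ran from 0.0362% to 5.29%, 6.9% to 32.3%, 0.0258% to 6.23%, 0.00517% to 4.63% and 0.32% to 12.8%. The lone library of a group is then assumed to vary like the other groups. A replicate block for the sample number of the treated groups gave 1 call for DMBA, the call of rank 97 being lost, and it ended the call of rank 49 in DMBA/TPA against DMBA (edgeR adjusted p = 0.0544). Across loci the differences between same-numbered libraries correlated at -0.000106 over all 18422 and at 0.24 over the 200. The labels give equal numbers no shared origin, so the libraries were not treated as paired. In DMBA, uncalled throughout, rank 2 went from 0.15 to -0.03 with total counts and to -0.07 with the other control set, and rank 3 from -0.11 to 0.04 with the latter.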
